A study of Mus musculus with 16 samples.

Results

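Integrins are the adhesion receptors with which T cells hold to vessel walls, to other cells, and to extracellular matrix, and 8 of their subunit genes were followed in CD8+ T cells of mouse kidney allografts and spleens. The members, chosen by name and not by a threshold on measured values, are Itga1, Itgae, Itga4, Itgal, Itgav, Itgb1, Itgb2, and Itgb7, which are 8 of the 32285 genes listed in the deposited data. All 8 were measured in each of 9 matrices of CD8+ T cells, which together held 72639 cells of 32 libraries. The study profiled CD45+ cells, sorted from collagenase-digested kidneys and from ground spleens of male mice, with a droplet method that counts mRNA molecules by unique molecular identifiers (UMIs). Accepted kidney allografts are DBA/2J kidneys placed in C57BL/6J (B6) recipients, which keep them without immunosuppression, and they were taken with the recipient spleen at 1 week (3 libraries each), 3 weeks (5 each), and 24 weeks (3 each). Rejecting kidney allografts are B6 kidneys placed in DBA/2J recipients, taken at 1 week (2 kidney and 3 spleen libraries), and naive spleens (5 libraries) had no transplant. GEO's labels give the strain C57BL/6J and the genotype WT for every sample, the rejecting ones included, and give no age. Recipient strain, donor strain, and rejection therefore changed together and cannot be told apart.

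The total UMIs per library lay between 153266 in a rejecting spleen and 25960721 in an accepted kidney, so members of low level are measured least precisely in the rejecting spleens, where 1 library held 56 cells. The cells had been called CD8+ by the authors, and the share with a UMI of Cd8a or Cd8b1 was 83.5% to 90.1% in accepted kidneys at 1 week, 96.3% to 97.0% at 3 weeks, 94.97% to 97.6% in naive spleens, 76.6% to 78.1% in rejecting kidneys, and 100% in each rejecting spleen, but 41.9% to 49.2% in recipient spleens at 1 week and 44.0% to 51.8% at 3 weeks. In these recipient spleens 10.0% to 23.0% of the cells held a Cd4 UMI and no CD8 UMI. At 24 weeks the make-up went against the labels. The libraries labelled kidney had a CD8 UMI in 46.2% to 49.2% of cells and summed RNA of 8 kidney epithelium genes of at most 0.260 CPM (the usual scaling of a gene's UMIs by the total of its library), whereas those labelled spleen had 93.4% to 95.3% and 2.59 to 3.78 CPM. The 24-week libraries are therefore named by their labels below, and every direction drawn from them rests on those labels. In the rejecting kidneys Cd4, the myeloid gene Itgam, and the B cell gene Ms4a1 had 0 UMIs in 2184 cells, which limits the cells with a UMI of each to 0.137% and not the cells that express it. The sources used here do not say whether these cells had been selected on such genes. At most 21 cell barcodes were shared by any pair of libraries. Kidney was digested and spleen was not, so tissue and preparation cannot be told apart.

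An integrin is a pair of an alpha and a beta chain, and the alpha chain largely sets the ligand. Itga1 (CD49a) pairs with Itgb1 and binds collagens and laminin, and Itgae (CD103) pairs with Itgb7 and binds E-cadherin (Cdh1) on epithelium. These 2 alpha chains are the usual surface markers of tissue-resident memory CD8+ T cells. Itga4 (CD49d) pairs with Itgb1 to bind Vcam1 and fibronectin on inflamed endothelium and matrix, or with Itgb7 to bind Madcam1 in gut vessels. Itgal (CD11a) pairs with Itgb2 (CD18) as LFA-1, which binds Icam1 and its relatives during adhesion to endothelium and to antigen-presenting cells, and Itgav (CD51) pairs with Itgb1 and other beta chains, binds vitronectin, and can activate latent TGF-beta. Integrins are held inactive until talin and kindlin, recruited through Rap1, bind the beta chain.

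The promoters of the 5 members with an entry in the table used here are shown, to set Itgb7, which was lower in kidney than in spleen at 1 and 3 weeks, beside 4 members that were higher. Each is the 250 bases before the RefSeq start of the gene (GRCm38.p6), written 5′ to 3′ on the strand of the gene. They are chr13:115101965-115102214 on the minus strand for Itga1, chr2:79255176-79255425 on the plus strand for Itga4, chr2:83724147-83724396 on the plus strand for Itgav, chr8:128685404-128685653 on the plus strand for Itgb1, and chr15:102231936-102232185 on the minus strand for Itgb7. Capitals mark matches to 3 motifs, each searched on both strands, so that a reverse complement is marked too. The core of the Runx motif was searched as TGTGGT. A motif of Klf factors was searched as CCACCC. A motif of Smad factors was searched as CAGAC, and none of the matches shown overlap.
Itga1: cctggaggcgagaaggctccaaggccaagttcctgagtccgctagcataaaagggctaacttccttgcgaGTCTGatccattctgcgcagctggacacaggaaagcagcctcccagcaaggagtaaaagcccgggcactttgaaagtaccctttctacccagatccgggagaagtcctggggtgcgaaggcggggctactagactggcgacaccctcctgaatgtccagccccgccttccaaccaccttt
Itga4: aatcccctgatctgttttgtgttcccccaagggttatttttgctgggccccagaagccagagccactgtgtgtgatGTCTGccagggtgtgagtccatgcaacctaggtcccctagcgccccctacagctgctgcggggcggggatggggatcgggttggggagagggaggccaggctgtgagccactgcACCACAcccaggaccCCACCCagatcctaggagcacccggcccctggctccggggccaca
Itgav: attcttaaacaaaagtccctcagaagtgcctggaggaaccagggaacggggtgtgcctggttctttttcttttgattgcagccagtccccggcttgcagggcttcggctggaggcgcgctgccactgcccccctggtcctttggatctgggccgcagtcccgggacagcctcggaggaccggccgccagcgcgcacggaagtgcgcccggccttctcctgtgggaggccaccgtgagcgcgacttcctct
Itgb1: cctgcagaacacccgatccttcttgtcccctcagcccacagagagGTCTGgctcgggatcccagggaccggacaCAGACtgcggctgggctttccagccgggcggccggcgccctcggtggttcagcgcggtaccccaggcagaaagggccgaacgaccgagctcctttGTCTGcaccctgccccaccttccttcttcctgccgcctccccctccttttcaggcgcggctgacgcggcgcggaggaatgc
Itgb7: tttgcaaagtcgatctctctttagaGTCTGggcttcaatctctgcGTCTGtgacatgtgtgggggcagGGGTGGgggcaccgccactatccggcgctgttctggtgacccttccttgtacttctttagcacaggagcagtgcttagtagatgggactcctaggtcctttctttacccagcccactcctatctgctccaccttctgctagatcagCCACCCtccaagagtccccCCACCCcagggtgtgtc
The Itga1 promoter held 1 Smad match, Itga4 held 1 match of each motif, Itgav held none, Itgb1 held 3 Smad matches, and Itgb7 held 3 Klf and 2 Smad matches. Of 32817 promoters of this length, 4608 held the Runx letters, 9212 (28.1%) the Klf letters, and 13848 (42.2%) the Smad letters, so matches such as these are common. A match is a description of the letters and was not tied to binding. The promoters of Itgae, Itgal, and Itgb2 were not analysed here. On GRCm38 the genes lie at chr13:114953096-115101964 (Itga1), chr11:73090583-73147446 (Itgae), chr2:79255426-79333123 (Itga4), chr7:127296260-127335138 (Itgal), chr2:83724397-83806916 (Itgav), chr8:128685654-128733200 (Itgb1), chr10:77530252-77565708 (Itgb2), and chr15:102215995-102231944 (Itgb7).

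Levels are CPM of a library, and because UMIs were counted near the 3′ end they are compared for 1 gene across groups and not between genes. Itga1 was near the floor in naive spleens, at 0.844, 0.557, 0, 1.41, and 0.785 CPM. In accepted kidneys it stood at 59.5, 56.4, and 30.8 CPM at 1 week and at 405, 398, 438, 396, and 404 CPM at 3 weeks. The 3 groups did not overlap, and the 5 kidneys of 3 weeks lay close together. Recipient spleens held 6.36 to 6.80 CPM at 1 week and 6.57 to 10.8 CPM at 3 weeks. At 24 weeks the libraries labelled spleen held 277, 203, and 208 CPM and those labelled kidney 9.20, 11.4, and 5.33 CPM. The rejecting kidneys differed from each other, at 411 and 217 CPM, and both lay above every accepted kidney of the same week, while rejecting spleens held 3.78, 13.0, and 12.1 CPM.

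Itgae was present before transplantation, at 22.8 to 33.1 CPM in naive spleens. Recipient spleens of 1 week held 13.7, 13.0, and 11.6 CPM, all below the naive ones. Accepted kidneys held 52.7, 50.2, and 25.2 CPM at 1 week and 251, 248, 257, 229, and 226 CPM at 3 weeks. The third kidney of 1 week was the lowest for both alpha chains and lay within the naive range for Itgae. In that library 34.2% of cells carried at least 2 of 5 dividing-cell genes, against 16.7% and 12.9% in the other two, and within each of these libraries dividing cells had less Itgae (22.5 against 27.6 CPM in the third). Among the cells that did not carry them, the third kidney was again lowest, at 27.6 CPM of Itgae against 57.7 and 51.2 CPM. The rejecting kidneys held 42.1 and 13.0 CPM of Itgae, within and below the accepted range, and rejecting spleens 6.29, 0, and 16.6 CPM. The libraries labelled spleen at 24 weeks held 247, 200, and 180 CPM and those labelled kidney 13.4, 11.6, and 15.7 CPM.

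**Figure D1:**
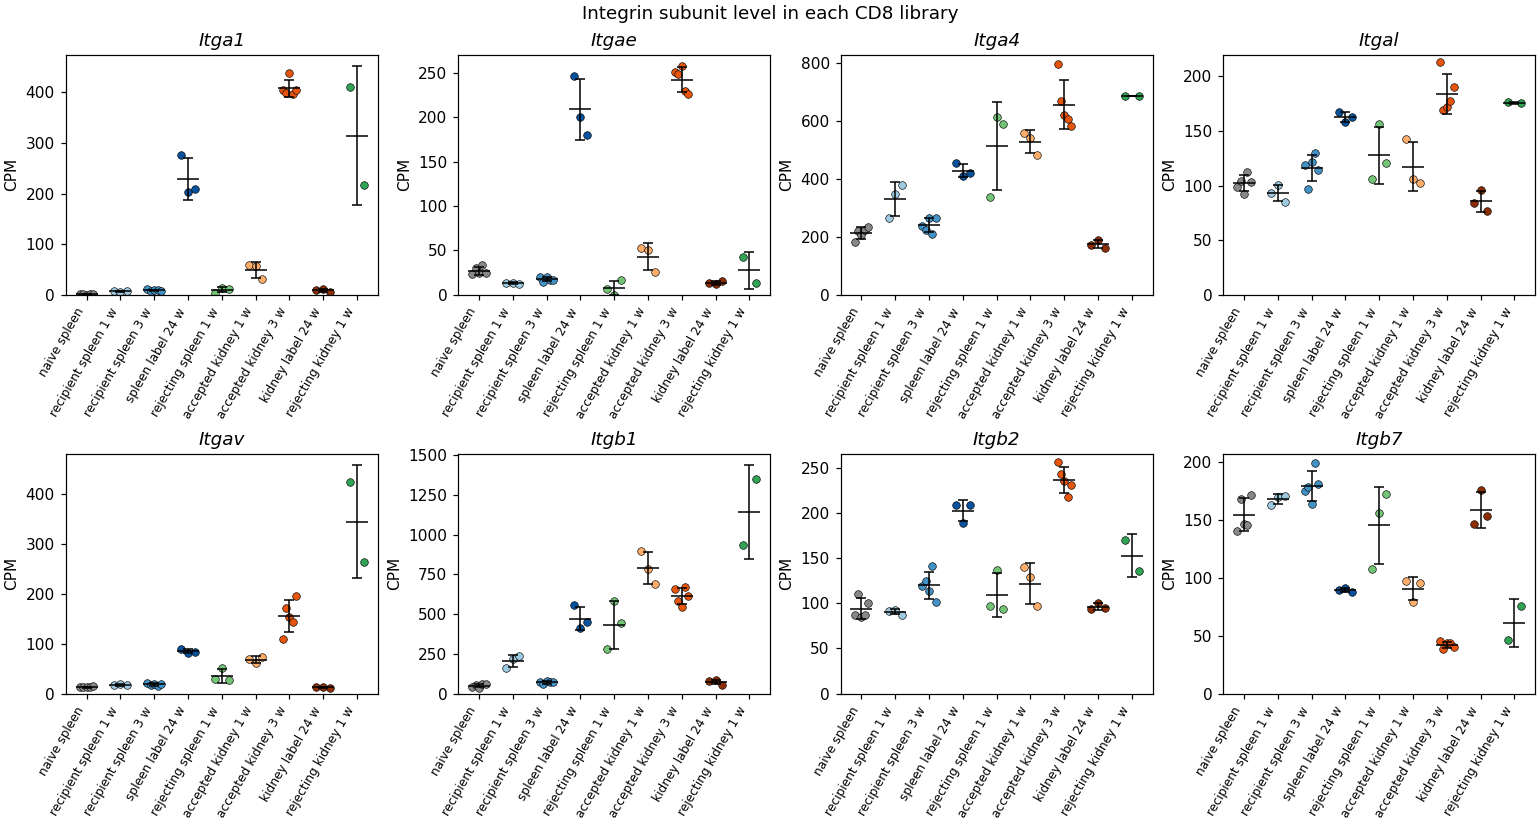
Level of each integrin subunit in CPM (vertical axes) in each library (points) of the 9 groups of CD8+ T cells, with the mean and SD as bars. Itga1 and Itgae peaked in accepted kidneys of 3 weeks at means of 408 and 242 CPM, and Itgb7 was lowest there, at 42.2 CPM.

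The chains of vascular and matrix adhesion, Itga4, Itgav, and Itgb1, were each higher in accepted kidneys of 1 week than in the recipient spleens of that week. Itgb1, the shared partner of Itga1, Itga4, and Itgav, stood at 897, 783, and 690 CPM in accepted kidneys of 1 week against 161, 221, and 236 CPM in their recipient spleens and 36.4 to 62.3 CPM in naive spleens. It was 546 to 670 CPM in accepted kidneys of 3 weeks, which did not reach the lowest value of 1 week. The rejecting kidneys, at 933 and 1351 CPM, lay above all of these. Itga4 stood at 559, 542, and 483 CPM at 1 week and at 584 to 796 CPM at 3 weeks in accepted kidneys, and at 685 and 687 CPM in rejecting kidneys. Itgav was 70.2, 60.9, and 73.996 CPM at 1 week, 110, 172, 154, 144, and 196 CPM at 3 weeks, and 426 and 265 CPM in rejecting kidneys, the highest of the 9 groups. At 1 and 3 weeks all 3 genes were lower in each recipient spleen than in the kidneys of the same week. By the labels at 24 weeks it was the reverse, with Itgb1 at 414 to 555 CPM in the libraries labelled spleen and 56.5 to 83.4 CPM in those labelled kidney, Itga4 at 411 to 455 and 160 to 188 CPM, and Itgav at 81.7 to 89.5 and 10.9 to 13.7 CPM.

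The chains of LFA-1 varied least. Itgal was 143, 106, and 103 CPM in accepted kidneys at 1 week and 169 to 213 CPM at 3 weeks, and Itgb2 was 140, 129, and 96.5 CPM and then 218 to 257 CPM. Both genes lay between 84.6 and 113 CPM in naive spleens, which overlapped the recipient spleens and the accepted kidneys of 1 week. Itgb7, the partner of Itgae and Itga4, ran the other way. It was 141 to 172 CPM in naive and 163 to 171 CPM in recipient spleens of 1 week, 97.5, 79.3, and 96.1 CPM in accepted kidneys at 1 week, and 45.4, 38.3, 43.4, 43.6, and 40.2 CPM at 3 weeks. Rejecting kidneys held 46.7 and 75.6 CPM.

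Ordered by mean, Itga1 ran from naive spleen through the recipient spleens, the libraries labelled kidney at 24 weeks, and the rejecting spleens, which overlapped their neighbours in this order, to accepted kidney of 1 week, the libraries labelled spleen at 24 weeks, rejecting kidney, and accepted kidney of 3 weeks, of which the last 3 overlapped their neighbours. Itgae had the rejecting spleens lowest and accepted kidney of 3 weeks highest, with rejecting and 1-week accepted kidneys overlapping naive spleen. For Itgav the 6 highest groups, from recipient spleen of 3 weeks through rejecting spleen, accepted kidney of 1 week, the libraries labelled spleen at 24 weeks, and accepted kidney of 3 weeks to rejecting kidney, each had ranges apart from the next. For Itga4 the order ran from the libraries labelled kidney at 24 weeks to rejecting kidney, and for Itgb1 from naive spleen to rejecting kidney. In Itga4 the 4 lowest groups overlapped their neighbours, as did accepted kidney of 3 weeks and rejecting kidney. Rejecting spleen overlapped both the libraries labelled spleen at 24 weeks and accepted kidney of 1 week, which lay apart from each other. Itgal and Itgb2 were highest in accepted kidney of 3 weeks, with a chain of 6 and of 7 overlapping groups at the low end. Itgb7 had accepted kidney of 3 weeks lowest, then rejecting kidney, and 5 overlapping groups at the top, all of them spleens or the libraries labelled kidney.

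Between 1 and 3 weeks in accepted kidneys, the comparison that asks how graft CD8+ T cells changed as acceptance settled, Itga1 rose by 3.07 (SE 0.17, adjusted p = 2.73e-09) and Itgae by 2.52 (SE 0.19, adjusted p = 2.49e-08) on the log2 scale. Itgav rose by 1.18 (SE 0.15), Itgb2 by 0.96 (SE 0.11), and Itgal by 0.65 (SE 0.11). Itgb7 fell by 1.11 (SE 0.09) and Itgb1 fell by 0.37 (SE 0.09). With the shift of genes of similar intron length taken out, Itga1 was 2.29 and Itgav 0.49, and both passed. Tests are edgeR quasi-likelihood tests on counts summed over the cells of each library, with adjusted p over all genes tested and a threshold of 0.05. All 8 members passed, 6 higher and 2 lower, as did 75.0% of the 11693 genes tested (53.5% higher and 21.5% lower). The median over all genes was 0.41, and the split of 6251 genes higher and 2516 lower became 4112 and 4165 with TMM factors, which centre it. Itga4, at 0.31 (SE 0.10), lay below that median, and it became -0.069 with TMM factors and -0.38 with the shift of genes of similar intron length taken out, where it passed as lower (adjusted p = 0.00239). Without dividing cells, a fit added after seeing the data, it did not pass (0.14, adjusted p = 0.217). The study itself names Itga1 and Itgae for these same libraries, so their rise is not independent evidence.

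Of the 19 other integrin subunit genes 7 were tested in this comparison, of which Itgb8 (-1.35), Itgam (-1.32), Itga2 (-1.06), and Itgax (-0.65) fell, Itga3 rose (0.61), and the rest did not pass. Of 23 activation and adaptor genes tested, 15 rose and 7 fell, with a median of 0.36 against 0.41 over all genes. Rasgrp2, an exchange factor for Rap1, fell from 59.7 to 14.2 CPM (-2.07), Ptk2b, a kinase of integrin signalling, rose from 83.6 to 218 CPM (1.39), and Vcl (vinculin) fell from 2.02 to 0.859 CPM (-1.26). Among 7 integrin ligand genes tested, 3 rose and 3 fell. Cdh1, the ligand of CD103, rose in these same cells from 6.99 to 47.3 CPM (2.81), Icam1 rose from 46.3 to 74.1 CPM (0.68), and Tgfb1 rose by 0.38, whereas Icam2 (-1.96), Spp1 (-1.06), and Icam4 (-0.98) fell. Kidney epithelium genes summed to 0.921 to 3.29 CPM at 1 week and 5.37 to 8.21 CPM at 3 weeks, and their part in the Cdh1 value was not tested. Of 12 residency and egress genes, 9 rose, among them Runx3 (1.95), Zfp683 (1.86), Cxcr6 (1.66), Tgfbr1 (1.31), Tgfbr2 (1.21), and Cd69 (0.91), and the 3 egress and lymph node homing genes Klf2 (-1.51), S1pr1 (-2.84), and Ccr7 (-3.30) fell.

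Against the recipient spleen at 1 week, accepted kidneys had higher Itga1 (2.87, SE 0.24), Itgav (1.95, SE 0.12), Itgb1 (1.94, SE 0.15), Itgae (1.73, SE 0.24), Itga4 (0.68, SE 0.13), and Itgb2 (0.42, SE 0.13) and lower Itgb7 (-0.89, SE 0.10). These 7 of 8 passed, beside 51.4% of 11707 genes (27.3% higher and 24.1% lower). Itgal, at 0.33 (SE 0.13, adjusted p = 0.0536), did not pass in this fit. It passed with DESeq2 (adjusted p = 0.0421) and, with edgeR, in cells that held a CD8 UMI and lacked markers of other types (CD8-UMI cells; 0.47, adjusted p = 0.0133), in a single model of all 9 groups (adjusted p = 0.0145), with no filter (adjusted p = 0.0429), without accepted kidney replicate 2 (adjusted p = 0.0455) or 3 (adjusted p = 0.0197), and with a replicate block (adjusted p = 0.0154). Itgb2 did not pass without accepted kidney replicate 1 (0.31, adjusted p = 0.0765) or replicate 2 (0.38, adjusted p = 0.0582), or with intron length taken out (0.31, adjusted p = 0.0722). The spleen libraries held B cell marker RNA of 464 to 929 CPM against at most 9.36 CPM in the kidneys, and the fit on CD8-UMI cells gave the same calls for these 7 genes. Of the other subunits, Itga3 (2.13) and Itgax (1.46) were higher in kidney and Itgb3 (-1.79), Itga2 (-0.63), and Itga6 (-0.52) lower. Of 24 adaptor genes 8 were higher and 7 lower, with Ptk2, the focal adhesion kinase, at 0.185 against 2.68 CPM (-3.79), Rasgrp2 at -1.57, and Rasgrp1 at -1.33. Of 6 ligand genes, Cdh1 (6.16), Icam1 (0.84), Tgfb1 (0.61), and Spp1 (19.5 against 0.0752 CPM) were higher and Icam2 (-1.36) lower. Of 12 residency and egress genes, Zfp683 (2.68), Cxcr6 (2.24), Prdm1 (2.18), and Runx3 (1.07) were higher and 6 were lower, which included Cd69 (-0.87), Tgfbr1 (-0.59), and Tgfbr2 (-0.53).

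At 3 weeks all 8 members differed between kidney and spleen. Itga1 was 46.9-fold higher in kidney (5.55, SE 0.09, adjusted p = 1.79e-18) and Itgae 13.8-fold higher (3.79, SE 0.08, adjusted p = 2.42e-17). Itgb1 (3.10, SE 0.08) and Itgav (3.05, SE 0.14) were higher by similar amounts, Itga4 (1.45), Itgb2 (0.98), and Itgal (0.67) by less, and Itgb7 was 4.25-fold lower (-2.09, SE 0.07, adjusted p = 5.53e-15). On CD8-UMI cells Itga1 was further apart (6.82, at means of 414 and 3.58 CPM) and Itgae less so (2.97, at 244 and 31.02 CPM), and both passed. The 8 of 8 stand beside 67.5% of 10944 genes (47.3% higher and 20.2% lower), and the split of 5177 genes higher and 2214 lower became 3532 and 3334 with TMM factors. Of the other subunits Itga3 (2.31) and Itgax (0.85) were higher, and Itgb3 (-3.16), Itga2 (-1.36), and Itga6, a laminin receptor chain (31.2 against 67.3 CPM, -1.11), were lower. Of 24 adaptor genes, 12 were higher and 9 lower, with Ptk2 (-3.96), Rasgrp2 (-3.73), and Vcl (-1.42) moved most. Cdh1 was at 47.3 against 0.643 CPM (6.22), Icam1 at 74.1 against 31.8 CPM (1.22), Tgfb1 higher by 0.84, and Icam2 at 3.65 against 36.7 CPM (-3.32). Spp1 had 0 UMIs in the spleens and was at least 70.5-fold higher in kidney, counting 3 UMIs over the group as the floor. These kidneys held myeloid marker RNA of 44.4 to 117 CPM against 3.59 to 12.9 CPM in the spleens. Their kidney epithelium RNA was 5.37 to 8.21 CPM against at most 0.481 CPM. The part of such RNA in the Spp1, Cdh1, and Itgax values, here and in the other comparisons of kidney with spleen, was not tested. Of 12 residency and egress genes 7 were higher, led by Zfp683 (4.55), Cxcr6 (3.87), and Prdm1 (3.02), and 4 lower, led by Ccr7 (-5.48), S1pr1 (-5.13), and Klf2 (-3.20).

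**Figure D2:**
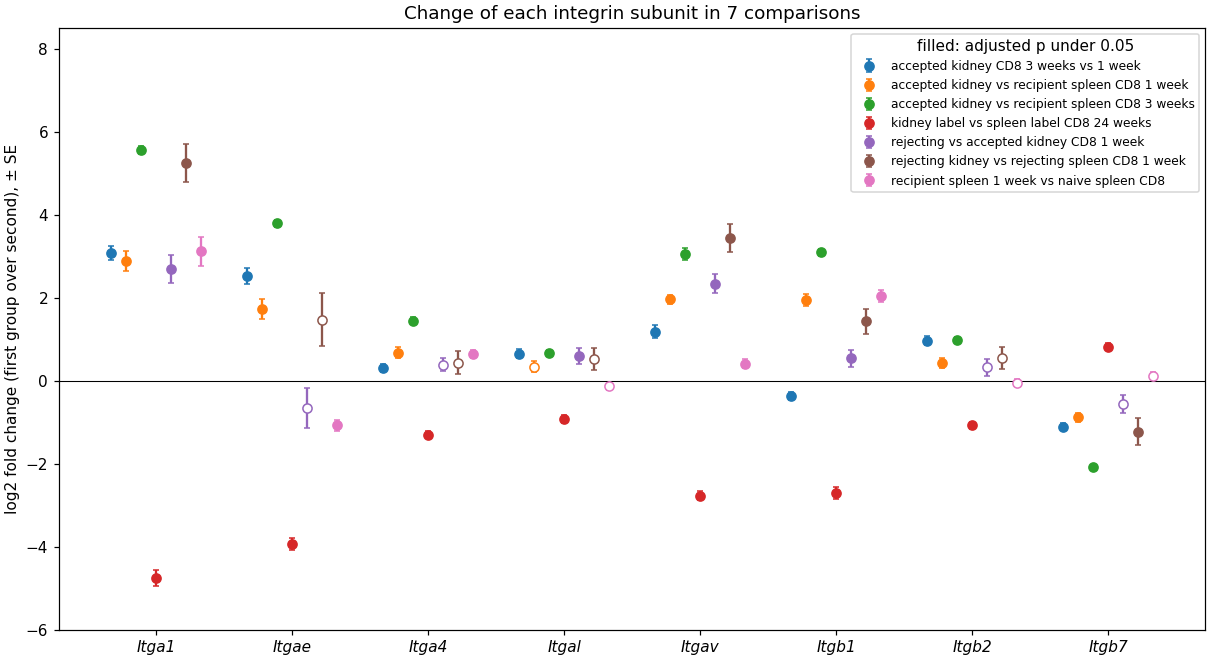
Log2 change of the 8 members (points, with SE as bars) in the 7 comparisons of 2 groups, in which filled points passed an adjusted p of 0.05. At 3 weeks the kidney was above the spleen for 7 members and below it for Itgb7 (-2.09), and every sign was turned in the comparison by label at 24 weeks.

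At 24 weeks the libraries labelled kidney had lower Itga1 (-4.76, SE 0.19), Itgae (-3.93, SE 0.14), Itgav (-2.77, SE 0.12), Itgb1 (-2.70, SE 0.14), Itga4 (-1.30), Itgb2 (-1.07), and Itgal (-0.93) than those labelled spleen and higher Itgb7 (0.82, SE 0.10). On CD8-UMI cells Itga1 was -6.13, at means of 3.58 and 231 CPM, and Itgae -3.10, at 24.6 and 212 CPM, and both passed. All 8 passed, beside 53.1% of 10381 genes (16.4% higher and 36.7% lower), and the split of 1707 genes higher and 3805 lower became 2604 and 2777 with TMM factors. For every member this is the opposite sign to the kidney-over-spleen change at 1 and 3 weeks. Of 4 other subunits tested, Itgb3 (2.82), Itga2 (0.96), and Itga6 (0.92) were higher and Itgb8 (-4.57) lower in the libraries labelled kidney. Of 23 adaptor genes 5 were higher and 8 lower, with Ptk2 (3.91), Rasgrp2 (3.01), and Ptk2b (-1.26) moved most. Of 5 ligand genes Cdh1 (0.615 against 44.0 CPM, -6.11), Spp1 (0.0970 against 15.8 CPM), Icam1 (-1.28), and Tgfb1 (-0.66) were lower and Icam2 (2.41) higher. Of 12 residency and egress genes 4 were higher, led by S1pr1 (3.40), Ccr7 (3.24), and Klf2 (2.40), and 6 lower, led by Zfp683 (-4.18), Cxcr6 (-3.52), and Prdm1 (-3.33). The labels were kept, and the libraries were not exchanged in any test.

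Rejecting kidneys were set against accepted kidneys at 1 week to ask how integrin RNA differs between the 2 outcomes, with 2 rejecting libraries. Itga1 (2.69, SE 0.34, adjusted p = 0.000209), Itgav (2.34, SE 0.22, adjusted p = 4.60e-05), Itgal (0.59, SE 0.19, adjusted p = 0.0249), and Itgb1 (0.53, SE 0.20, adjusted p = 0.0481) were higher. Itgae (-0.66, SE 0.47), Itgb7 (-0.56, SE 0.23), Itga4 (0.38, SE 0.15), and Itgb2 (0.33, SE 0.20) did not pass. Itgae did pass as lower with DESeq2 (-1.32, adjusted p = 0.0213), with the shift of genes of similar intron length taken out (-1.61, adjusted p = 0.0370), and in a single model of all 9 groups (-0.67, adjusted p = 0.0392). Itgb7 passed as lower in these 3 fits too, and also in CD8-UMI cells (-0.68, adjusted p = 0.0374) and with no filter (-0.56, adjusted p = 0.0348). The 4 of 8 stand beside 59.4% of 12533 genes (48.9% higher and 10.5% lower), and the median of all genes was 0.70, above the members' median of 0.46. The split of 6127 genes higher and 1313 lower became 3443 and 3222 with TMM factors. With these Itga1 and Itgav stayed higher at 2.00 and 1.65, Itgb7 passed as lower (-1.25), and Itgal (-0.10), Itgb1 (-0.15), Itga4 (-0.31), and Itgb2 (-0.36) turned sign without passing. Long-intron genes were higher in the rejecting libraries. Itga1, with 130 kb of intron, lies at the 96.6th percentile of genes, and with the shift of genes of similar intron length taken out it was 0.73 and did not pass (adjusted p = 0.0862), whereas Itgav did at 1.02 and Itga4 passed as lower at -0.92. The rejecting kidneys differed in dividing cells, at 8.52% and 46.8%. The kidney with fewer of them had more Itga1, Itgae, and Itgav, and also among the cells that were not dividing, at 424 against 245 CPM, 44.4 against 18.9 CPM, and 410 against 298 CPM. Leaving out either rejecting kidney leaves that group with 1 library, which is then assumed to vary like the other group. Without the kidney with fewer dividing cells Itgae passed as lower (-1.71, adjusted p = 0.00352). Without rejecting kidney replicate 2, Itgb1 did not pass (0.24, adjusted p = 0.279) and Itgb7 passed as lower (-0.96, adjusted p = 0.00205). Leaving out any of the 3 accepted kidneys also lost the call for Itgb1, as did CD8-UMI cells (0.50, adjusted p = 0.0691) and the fit without dividing cells (0.51, adjusted p = 0.0577), and leaving out replicate 2 or 3 that for Itgal.

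Of 10 other subunits tested in this comparison, Itga5, the fibronectin receptor chain, was at 2.28 against 0.214 CPM (3.27), and Itgb5 (2.13), Itga3 (1.78), and Itgb3 (1.75) were also higher. Itgax and Itgam had 0 UMIs in the rejecting kidneys and were at least 10.4-fold and 3.40-fold lower, and it is not known whether the authors had selected these cells on such genes, which would set the values to 0. The remaining 5 myeloid genes were present there, and the list summed to 131 to 132 CPM against 33.9 to 78.7 CPM. Of 24 adaptor genes 15 were higher and 3 lower, with Vcl (2.95), Tln2 (2.82), and Lims1 at 372 against 78.7 CPM (2.24) moved most. Of 8 ligand genes, Cdh1 (32.3 against 6.99 CPM, 2.21) and Tgfb1 (177 against 68.0 CPM, 1.38) were higher, Spp1 (-1.24) was lower, and Icam4 had 0 UMIs. Among the residency and egress genes Tgfbr1 (2.39), Runx3 (2.02), Tgfbr2 (1.84), Ski (1.59), and Prdm1 (0.67) were higher and Klf2 (-3.20), Ccr7 (-1.98), S1pr1 (-1.42), Smad7 (-1.05), and Cd69 (-0.76) lower.

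Within rejection, kidney over spleen was 5.23 (SE 0.46, adjusted p = 1.17e-05) for Itga1, 3.43 (SE 0.34, adjusted p = 1.71e-05) for Itgav, 1.43 (SE 0.30, adjusted p = 0.00518) for Itgb1, and -1.23 (SE 0.32, adjusted p = 0.0177) for Itgb7. Without dividing cells Itga1 was 6.53. The other 4 members, between 0.43 and 1.47, did not pass, and 16.1% of 8205 genes did (10.8% higher and 5.34% lower), a split of 887 and 438 genes that became 546 and 564 with TMM factors. Itgb7 did not pass without rejecting kidney replicate 1 (-0.92, adjusted p = 0.0591) or rejecting spleen replicate 3 (-1.05, adjusted p = 0.1004), nor did Itgb1 without rejecting spleen replicate 1 (1.17, adjusted p = 0.0521), and Itgae passed without rejecting kidney replicate 2 (2.08, adjusted p = 0.00581), where 1 rejecting kidney remains and the spread comes from the spleens. Itgae also passed with no filter (1.48, adjusted p = 0.0307) and, like Itga4 (0.76, adjusted p = 0.0381), without dividing cells (1.87, adjusted p = 0.0250), and Itga4, Itgal, and Itgb2 passed in the single model of all 9 groups. Of 24 adaptor genes 3 were higher and 4 lower, with Ptk2 (-3.73), Rasgrp2 (-3.10), and Lims1 (1.39) moved most, and of 4 ligand genes Cdh1 (4.60) and Tgfb1 (1.45) were higher. Cxcr6 (3.42), Prdm1 (3.29), and Runx3 (1.15) were higher, and Klf2 (-3.89), S1pr1 (-3.79), and Ccr7 (-3.55) lower.

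The kidney-over-spleen change was itself compared between rejection and acceptance at 1 week. It was larger in rejection for Itgav by 1.52 (SE 0.33, adjusted p = 0.0319), the only member of the 8 that passed, beside 1.42% of 13135 genes (1.08% higher and 0.343% lower). This call was lost without accepted kidney replicate 1 or 2, without any of the 3 recipient spleens, and without rejecting spleen replicate 1 or 3 (values of 1.39 to 1.56, adjusted p 0.0516 to 0.146), and also with TMM factors (1.34, adjusted p = 0.0630), with intron length taken out (1.22, adjusted p = 0.0733), and in CD8-UMI cells (0.96, adjusted p = 0.322). Itga1 differed by 2.38 (SE 0.61, adjusted p = 0.0663) and passed with DESeq2 (2.17, adjusted p = 0.0280), in the single model of all 9 groups (2.40, adjusted p = 0.00992), with no filter (2.38, adjusted p = 0.0235), and without dividing cells (3.54, adjusted p = 0.0111). It also passed without rejecting kidney replicate 2 (adjusted p = 0.0128), a fit in which the 1 rejecting kidney left is the higher for Itga1 and the spread comes from the other groups. The other 6 members lay between -0.49 and 0.20. Of the other subunits Itgb3 passed (2.25, adjusted p = 0.043), as did Itgax, which had 0 UMIs in the rejecting kidneys, and 0 of 26 adaptor and 0 of 9 ligand genes passed with edgeR (5 and 1 at an unadjusted p under 0.05, and 3 and 0 with DESeq2). Klf2 (-1.71), S1pr1 (-2.04), and Ccr7 (-2.21) were lower. The median over all genes was 0.21. The split of 142 genes higher and 45 lower became 90 and 66 with TMM factors and 186 and 247 with DESeq2.

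Recipient spleens of 1 week had higher Itga1 than naive spleens (6.62 ± 0.226 against 0.720 ± 0.511 CPM, SD, n = 3 and 5; 3.11, SE 0.34) and lower Itgae (12.8 ± 1.08 against 26.8 ± 4.40 CPM; -1.08, SE 0.13). The naive Itga1 values rest on 0 to 7 UMIs in a library, and this is a difference in summed RNA at a low level, from which no expression by CD8+ T cells is read. Itgb1 rose by 2.04 (SE 0.14), Itga4 by 0.64 (SE 0.10), and Itgav by 0.41 (SE 0.11), and Itgal (-0.14), Itgb2 (-0.05), and Itgb7 (0.12) did not pass. Itgb7 passed as higher with DESeq2 (0.23, adjusted p = 0.00656), TMM factors (0.23, adjusted p = 0.0104), and intron length taken out (0.18, adjusted p = 0.0368), and Itgal passed as lower in CD8-UMI cells (-0.24, adjusted p = 0.0304). The 5 of 8, 4 higher and 1 lower, stand beside 60.2% of 10348 genes (25.0% higher and 35.2% lower), and the median of all genes was -0.12. The split of 2591 genes higher and 3640 lower became 3107 and 2925 with TMM factors. The recipient spleens had a CD8 UMI in fewer cells than naive spleens, as given above, and more B cell marker RNA (464 to 929 against 27.0 to 55.7 CPM). In the fit on CD8-UMI cells Itgav turned to -0.12 and did not pass. Itgae was less far apart in CD8-UMI cells, at means of 17.4 and 28.0 CPM. Itga2, a collagen receptor chain, rose from 2.13 to 7.17 CPM (1.79) and Itga6 fell by 0.29, and of 24 adaptor genes 5 rose, led by Cib1 (0.79), Skap2 (0.71), and Itgb1bp1 (0.63), and 10 fell. Icam1 fell by 0.60. Of 11 residency and egress genes Prdm1 (2.03) and Klf2 (0.37) rose and 6 fell, led by Runx3 (-1.42).

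The share of cells with a UMI of each member was counted after thinning every cell to 1000 UMIs, which left out 464 shallower cells, of which 313 were from recipient spleens of 1 week, 53 from recipient spleens of 3 weeks, 97 from the libraries labelled spleen at 24 weeks, and 1 from a naive spleen. Itga1 was found in 31.5% ± 1.02 of cells (SD, n = 5) in accepted kidneys at 3 weeks, 5.23% ± 1.40 (n = 3) at 1 week, and 30.1% and 18.6% in the rejecting kidneys, and unthinned in 54.1% and 13.6% at 3 weeks and 1 week. As background, 3 of 28737 naive spleen cells with B cell markers and no CD3 UMI held Itga1 (0.0104%, exact 95% interval 0.00215 to 0.0305), at a median of 2672 UMIs, and in the rejecting kidneys 2.48% of 6048 cells with myeloid markers did (2.10 to 2.90), at a median of 2465.5 UMIs. These intervals cover counting error only. Shares in recipient spleens (0.753% and 0.898%) and rejecting spleens (0.911%) lay above the B cell share of naive spleen and below the myeloid share of rejecting kidney, and no expression is read from them. Itgae was found in 19.3% ± 0.880 of cells at 3 weeks and 4.02% ± 1.49 at 1 week, in 2.78% in naive spleens, in 4.38% and 1.47% in rejecting kidneys, and in 8 of the 28737 B cell marker cells (0.0278%). In the CD45+ cells of naive spleen Itgae was in 2.63% of 5051 cells with CD3 and CD8 UMIs and in 0.357% of 2798 with CD3 and CD4 UMIs, at medians of 4324.5 and 3712 UMIs.

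Of the remaining members, Itgb1 was in 50.1% of cells of accepted kidneys at 1 week, 38.5% at 3 weeks, and 4.57% in naive spleens. The rejecting kidneys stood at 45.5% and 65.5%, below and above the accepted kidneys of 1 week (46.0% to 54.5%). Itgb1 was in 63.7% of 331 rejecting-kidney cells with CD3 and CD4 UMIs. Itgav was in 5.70% ± 0.470 and 13.3% ± 2.74 of cells at 1 and 3 weeks in accepted kidneys, in 27.9% and 21.6% in rejecting kidneys, in 24.9% of 1796 rejecting-kidney cells with CD3 and CD8 UMIs, and in 18.1% of the CD4 cells. Itga4 was in 40.3% and 43.2% in accepted kidneys, Itgal in 11.2% and 16.8%, Itgb2 in 11.2% and 21.01%, and Itgb7 in 8.71% and 3.99%, at 1 and 3 weeks. Between 1 and 3 weeks the shares of 7 members did not overlap between the groups (59.7% of all genes), each with p = 0.0357 by an exact two-sided permutation test, the smallest that 3 against 5 libraries can give, and adjusted p = 0.0598, whereas Itga4 overlapped (p = 0.321). Between kidney and spleen at 3 weeks all 8 did not overlap (38.5% of all genes), with p = 0.00794 by the exact permutation test, again the smallest possible, and adjusted p = 0.0206. Without thinning Itgal (1.59 percentage points, adjusted p = 0.786) and Itgb2 (7.14 percentage points, adjusted p = 0.167) overlapped and did not pass by that exact permutation test. All 8 did not overlap between tissues at 1 week (49.1% of all genes) or between labels at 24 weeks (45.9%), where an exact permutation of 3 against 3 libraries cannot go below p = 0.1. Between rejecting and accepted kidneys Itga1, Itgal, Itgav, and Itgb2 did not overlap (69.3% of all genes), between rejecting kidney and spleen all but Itgal did not overlap (40.4%), where the smallest exact p is 0.2, and between recipient and naive spleen Itga1, Itgae, and Itgb1 did not overlap (35.4%, p = 0.0357, adjusted p = 0.101).

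The balance of partner chains was followed as the ratio of alpha to beta UMIs in a library, which depends on how well each gene is captured and is compared for 1 pair across groups. Itgae per Itgb7 was 0.175 (range 0.142 to 0.227) in naive spleens, 0.0761 in recipient spleens of 1 week, 0.479 (0.263 to 0.634) in accepted kidneys at 1 week, and 5.76 (5.26 to 6.47) at 3 weeks. Accepted kidneys of 1 and 3 weeks thus had more Itgae for each count of its partner than naive spleens. The rejecting kidneys stood at 0.172, within the naive range, and 0.901, and at 24 weeks the libraries labelled kidney averaged 0.0864 and those labelled spleen 2.32. On CD8-UMI cells Itgae and Itgb7 averaged 24.6 and 154 CPM in the libraries labelled kidney and 17.4 and 161 CPM in recipient spleens of 1 week. Naive spleens averaged 28.0 and 154 CPM there, so both groups lay nearer to naive spleens in these cells. Itga1 per Itgb1 was 0.0610 at 1 week, 0.671 (0.592 to 0.802) at 3 weeks, and 0.160 and 0.441 in rejecting kidneys. Itga4 per Itgb7 was 1.38 in naive spleens, 5.87 at 1 week, 15.5 at 3 weeks, and 9.09 and 14.7 in rejecting kidneys, while Itga4 per Itgb1 was 4.34 in naive spleens and 0.672, 1.07, and 0.621 in these 3 kidney groups. For Itga4 the ratio to Itgb7 was thus higher in these 3 kidney groups than in naive spleen, and the ratio to Itgb1 lower. The libraries labelled kidney at 24 weeks averaged 1.10 per Itgb7, below naive spleens, and 2.43 per Itgb1. Itgal per Itgb2 stayed between means of 0.777 and 1.17 in all 9 groups.

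Pairing within cells was measured as the share of cells with both subunits divided by the product of the single shares, at 1000 UMIs per cell, where 1 is what independent detection would give. The values are descriptions over libraries, without a test, and cover pairs for which at least 5 cells with both were expected in a library. In accepted kidneys at 3 weeks Itgae and Itgb7 were found together 1.37 ± 0.122 times as often (SD, n = 5), above 1 in 5 of 5 libraries, with Itgb7 in 5.51% of cells with Itgae and in 3.63% of cells without it. Itga4 and Itgb1 stood at 1.11 ± 0.030 (5 of 5, 42.7% against 35.3%), Itgal and Itgb2 at 1.05 ± 0.074 (4 of 5), and Itga4 and Itgb7 at 1.03 (3 of 5). Itga1 and Itgav were not enriched with Itgb1, at 0.959 ± 0.027 and 0.917 ± 0.037 (0 of 5 each), and without thinning they stood at 1.00 and 1.01. Pairs that form no receptor reached like values, with Itgal and Itgb7 at 1.28 and the beta chains Itgb1 and Itgb7 at 1.20 (5 of 5 each), and the median of the 6 partner pairs, 1.04, was close to that of the other alpha-beta pairs, 0.999. The lowest was Itgav with Itgb7, at 0.392 ± 0.170 (0 of 5), with Itgb7 in 1.58% of cells with Itgav and in 4.35% of cells without, and it was 0.770 without thinning.

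At 1 week in accepted kidneys Itga4 was enriched with both partners, at 1.20 ± 0.031 with Itgb1 and 1.25 ± 0.051 with Itgb7 (3 of 3 each), and cells with Itgae had Itgb1 less often (39.5% against 50.5%, ratio 0.786) and Itga4 less often (ratio 0.769, 0 of 3 above 1 for each). Itgae with Itgb7 lay between 0.396 and 1.29. In recipient spleens of 1 week Itga4 and Itgb1 stood at 2.10 ± 0.271 (3 of 3), with Itgb1 in 26.0% of cells with Itga4 and 8.67% without, Itgav and Itgb1 at 1.94, and Itgal and Itgb2 at 1.30, and the partner pairs had a median of 1.42 against 1.00 for the other alpha-beta pairs. In these spleens 41.9% to 49.2% of cells held a CD8 UMI and 10.0% to 13.5% a Cd4 UMI without one, and the part of cell mixture in these ratios was not tested. In the rejecting kidneys the medians were 0.944 and 0.945.

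**Figure D3:**
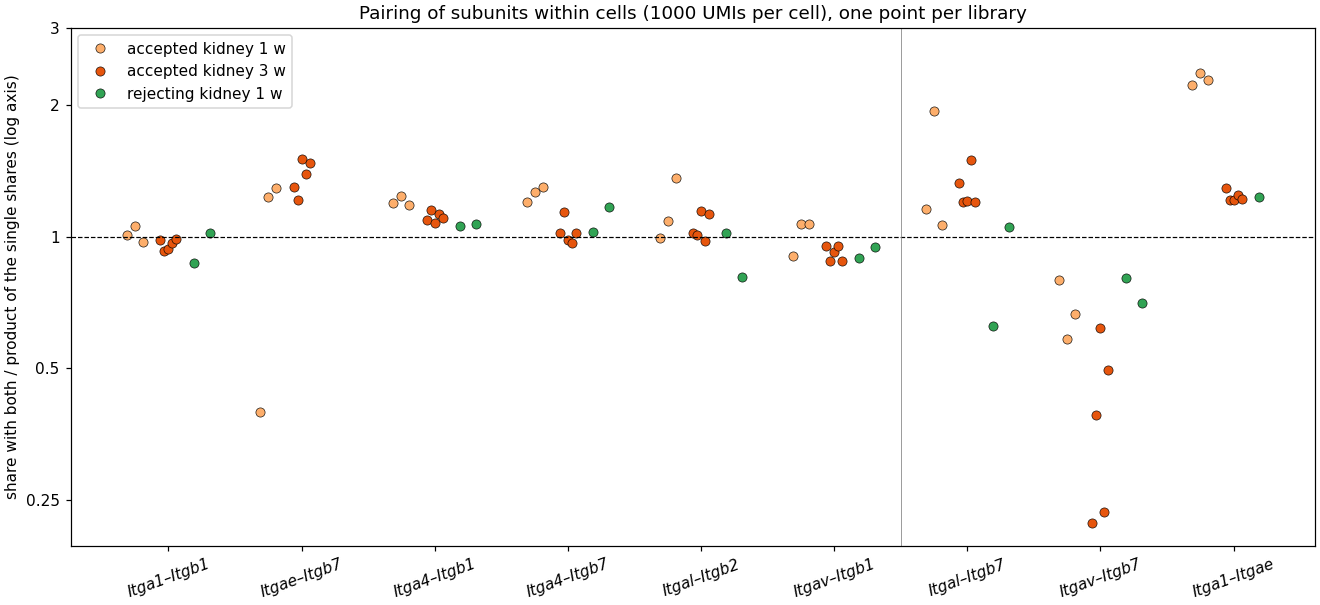
Cells with both subunits over the number that independent detection would give (log axis, 1 marked) in each library (points) of accepted kidneys at 1 and 3 weeks and rejecting kidneys at 1 week. At 1000 UMIs per cell, Itgae with Itgb7 averaged 1.37 at 3 weeks and Itgav with Itgb7 0.392, which was 0.770 without thinning.

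Cells with both Itga1 and Itgae made up 7.02% to 7.99% of cells in accepted kidneys at 3 weeks, beside 24.0% with Itga1 and no Itgae and 11.8% with Itgae and no Itga1, and the pair was found together 1.23 ± 0.034 times as often as independent detection would give. That ratio was 1.18 ± 0.0047 without thinning and 1.32 ± 0.118 at 500 UMIs per cell. At 1 week both were found in 0.190% to 0.695% of cells (ratio 2.29 ± 0.075, 3 of 3), in the rejecting kidneys in 1.62% and 0.105%, and in naive spleens, recipient spleens of 3 weeks, and rejecting spleens in 0. No UMI of any of the 8 members was found in 53.7% of naive spleen cells, 22.0% of cells of accepted kidneys at 1 week, and 10.9% at 3 weeks, and the mean number of members per cell was 0.601, 1.36, and 1.88.

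**Figure D4:**
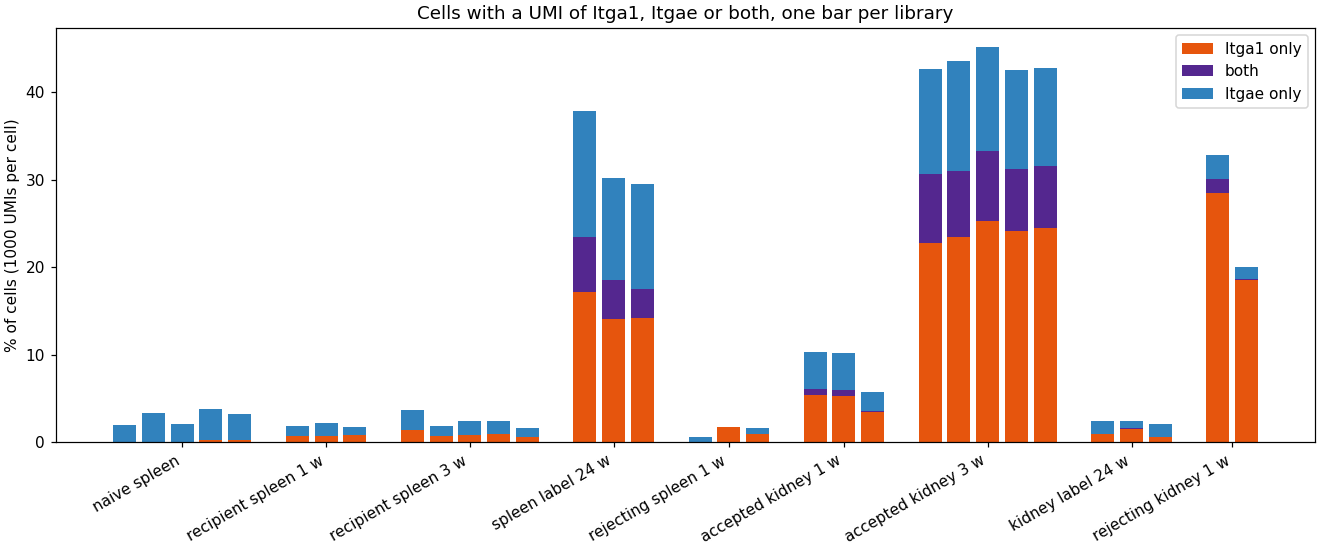
Percent of cells with a UMI of Itga1 alone, of both Itga1 and Itgae, and of Itgae alone (stacked bars) in each library of CD8+ T cells at 1000 UMIs per cell. Both together averaged 7.51% in accepted kidneys at 3 weeks, and the rejecting kidneys held 23.5% with Itga1 alone on average and 2.06% with Itgae alone.

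The cells that held each integrin at 3 weeks differed in the other genes they carried. Cells with Itgae more often held Gzmb, a granule protease (50.1% against 31.5% of cells without it, ratio 1.43, 1.35 to 1.48 over 5 libraries), Cd7 (32.4% against 19.9%), and Gzma (6.57% against 3.16%), and less often Tox, a factor of chronic stimulation (20.9% against 27.5%), and Pdcd1, which encodes PD-1 (33.0% against 37.9%, below 1 in 5 of 5 libraries for both). Cells with Itga1 shared the higher Gzmb (41.8% against 32.1%). Cells with Itgav stood the other way, with more Tnfrsf9, which encodes 4-1BB (8.41% against 4.55%, ratio 1.68), Fosl2 (25.5% against 16.6%), Pdcd1 (43.5% against 36.0%), Lag3 (ratio 1.17), and Tox (1.12), and less Il7r (0.704). Cells with Itgb7 held more Ly6c2 (10.1% against 3.43%), Ly6a (21.4% against 9.42%), and Klf2 (10.5% against 5.21%) and less Pdcd1 (20.4% against 37.6%) and Lag3 (5.81% against 12.3%). Cells with Itgb1 held more Nrp1 (15.1% against 9.92%) and Il7r (19.1% against 13.2%) and less Gzmb (29.6% against 38.5%). Genes outside the lists, such as Cd7, Gzma, Fosl2, and Ly6c2, were named after their values were seen, and these shares are descriptions of cells of the same libraries. In the rejecting kidneys cells with Itgav again held more Tnfrsf9 (14.6% against 5.62%), and cells with Itga1 held less Tcf7 (0.552% against 5.38%), a gene of naive and stem-like T cells, as they did in accepted kidneys of 1 week (3.51% against 10.1%).

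**Figure D5:**
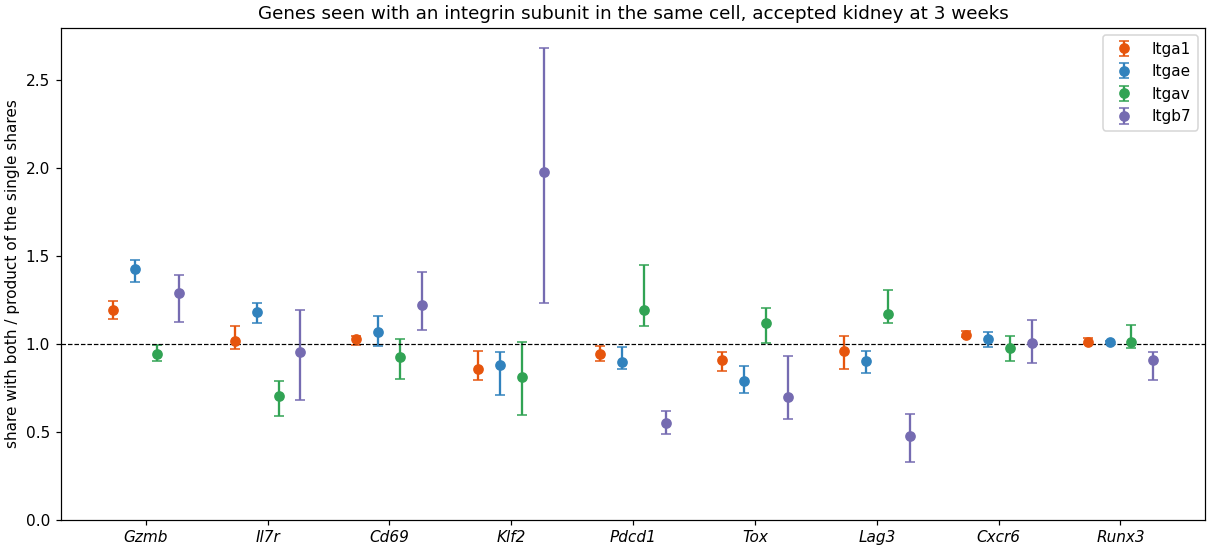
Share of cells with both genes over the share that independent detection would give, for Itga1, Itgae, Itgav, and Itgb7 with 9 other genes in accepted kidneys at 3 weeks (mean, with the lowest and highest of 5 libraries as bars, and 1 marked). Pdcd1 was at 1.19 with Itgav and 0.552 with Itgb7, and Gzmb at 1.43 with Itgae.

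Across the 32 libraries, the genes whose log2(CPM + 1) ran most like each member were named from the 7333 that averaged 20 CPM or more in any group. Pearson's r over libraries describes differences between 9 groups that share tissue, depth, and cell make-up. For Itga1 they were Mdfic (0.975), Fasl, which encodes Fas ligand (0.972), and Klrc1 (0.966), and for Itgae Cd164 (0.972), Gm42670 (0.972), and Gpr171 (0.957). Itgav ran with Rbpj, the DNA-binding partner of Notch (0.986), AU020206 (0.977), and Srgap3 (0.977), and Itgb1 with Nrp1 (0.986), Ctla4 (0.966), and Gzmb (0.965). Itga4 ran with Nrp1 (0.957), Itgb1 (0.949), and Plek (0.948), Itgal with Tor1aip1 (0.928), Prex1 (0.928), and Suco (0.917), and Itgb2 with Crbn (0.941), Mxd4 (0.937), and Sytl2 (0.933). Itgb7 ran with Tcf7 (0.971), Icam2 (0.955), and Kcnn4 (0.954) and against each of the other 7 members (-0.734 to -0.896). Partners and other pairs covered like ranges, with Itga4 and Itgb1 at 0.949, Itgal and Itgb2 at 0.894, Itgae and Itgb7 at -0.742, and Itga4 and Itgb7 at -0.764 among partners, and Itga1 and Itgb2 at 0.893 and Itgae and Itgb1 at 0.383 among pairs that form no receptor.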

How the data were processed

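CD45+ cells were profiled with 10x Chromium 3′ chemistry. Reads were mapped by the authors to mm10 with Cell Ranger (per the labels, with no version given in the sources used here), and the authors filtered cells by UMIs, genes, and mitochondrial content, named cell types by hand, and deposited raw UMI counts as 1 matrix for each group. Library tags in the cell barcodes told libraries apart. The study treats every mouse as its own sample, and the tags at 1, 3, and 24 weeks, 3, 5, and 3, are as many as its mice. No source used here maps a tag to a mouse, so p-values measure the spread between tags. For each library the counts of its cells were added up and divided by its total to give CPM.

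The 7 comparisons and the interaction were tested with edgeR 4.0.16 (R 4.3.3; filter on low counts, quasi-likelihood test, Benjamini-Hochberg adjustment over all genes, 0.05). Shares of cells, counted after thinning to 1000 UMIs with a fixed seed, were tested by exact permutation over libraries (Python 3.11.15, scipy 1.17.1), two-sided and adjusted over all genes. Scripts were tested on simulated data. The rejecting matrices list 32285 genes, and 16243 genes are in every CD8 matrix. Intron lengths and positions are from GENCODE on GRCm38, which matched 97.3% of symbols. No doublet caller was run. Alternatives were TMM factors, DESeq2 1.42.0, a single model of all 9 groups, no filter, CD8-UMI cells only, intron length taken out, thinning to 500 UMIs or none, and leaving out each library.

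The members and lists were chosen with earlier results of these data known. Some list genes are not reported here. Named genes are the members, list genes that passed, the 3 adaptor genes moved most, and the 3 genes most like each member. Genes named as seen in the same cells as a member go beyond these, and those outside the lists were named after their values were seen.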

Additional observations from a re-analysis of the deposited data

Results flagged for a closer look

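Each member was checked, by CPM and by share of cells, in the groups of 4 or more libraries. Of 48 such checks, 3 found a library that stood apart from the others by Dixon's rule. Chance flags about 1 in 20, and the checks share libraries, so they are not independent. A naive spleen had 14.9 CPM of Itgav against 12.7 to 13.1 CPM in the other 4. A recipient spleen of 3 weeks had Itgb7 in 19.2% of cells against 16.5% to 17.0% in the other 4. An accepted kidney of 3 weeks had 438 CPM of Itga1 against 396 to 405 CPM in the other 4.

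The kidney-over-spleen change of Itgav differed between rejection and acceptance at 1 week, by 1.52 on the log2 scale (edgeR interaction, adjusted p = 0.0319). The difference did not pass in CD8-UMI cells (0.96, adjusted p = 0.322), with TMM factors (1.34, adjusted p = 0.0630), with intron length taken out (1.22, adjusted p = 0.0733), or in 7 of the fits that left out a library (values of 1.39 to 1.56, adjusted p 0.0516 to 0.146). Recipient strain and rejection cannot be told apart in this difference.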

How the results depend on the processing

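Precision is limited by 2 rejecting kidneys and by rejecting spleens of as few as 56 cells, and scaling moved most where the median of all genes was far from 0. The cause of each change below was not tested. Leaving out a library gave 8 members called in every fit at 3 weeks against 1 week, at 3 weeks between tissues, and at 24 weeks, 6 to 8 between tissues at 1 week, and 5 between recipient and naive spleen. In that order these fits called 8391 to 8757, 6869 to 7508, 5001 to 5354, 4922 to 5775, and 5631 to 6252 genes. The fits with every library called 75.0%, 67.5%, 53.1%, 51.4%, and 60.2% of the genes tested.

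Between 3 weeks and 1 week, Itga4 was -0.078 with DESeq2, -0.069 with TMM factors, and -0.38 with intron length taken out. Between rejecting and accepted kidneys, the values with DESeq2, TMM factors, and intron length taken out were -0.30, -0.31, and -0.92 for Itga4, -0.089, -0.096, and -0.092 for Itgal, -0.15, -0.15, and -0.42 for Itgb1, and -0.36, -0.36, and -0.36 for Itgb2. A single model of all 9 groups called 8 members there beside 8486 of 12503 genes, against 4 members and 7440 of 12533 genes. Leaving out accepted kidney replicate 2 or 3 called 2 members each, beside 6191 of 11876 and 6472 of 11843 genes. Between recipient and naive spleen, Itgav was -0.12 in CD8-UMI cells, Itgb2 was 0.059 with DESeq2, 0.057 with TMM factors, 0.15 with intron length taken out, and -0.083 to 0.015 when a library was left out, and Itgal was 0.064 with intron length taken out.

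For the interaction, which called 1 member and 187 genes, 0 members passed with CD8-UMI cells, TMM factors, or intron length taken out, and 2 with DESeq2, the single model, no filter, or without dividing cells, an alternative chosen after seeing the data. It called 33 genes with CD8-UMI cells, 433 with DESeq2, 1030 with the single model, and 321 without dividing cells. Leaving out a library gave 0 to 2 members and 56 to 379 genes. Itgae turned to 0.31 in CD8-UMI cells, 0.12 without dividing cells, and, leaving out a library, lay between -1.34 and 0.62, Itgal turned to -0.055 in CD8-UMI cells, and Itgb2 to -0.043 with DESeq2, -0.027 with TMM factors, and -0.059 with intron length taken out, and lay between -0.0095 and 0.31 when a library was left out. Between rejecting kidney and spleen, DESeq2 called 853 genes and the single model 3916 genes and 7 members, against 1325 genes and 4 members, and leaving out a library gave 594 to 1871 genes and 3 to 5 members. In CD8-UMI cells Itgae was not tested in that comparison because it did not pass the filter.

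Without thinning, shares of Itgal (1.59) and Itgb2 (7.14) no longer passed between tissues at 3 weeks. Differences in shares of cells, in percentage points, turned without thinning for Itga4 between 3 weeks and 1 week (-0.968), for Itga4 (-1.31), Itgb1 (-1.57), and Itgb2 (-0.864) between rejecting and accepted kidneys, and for Itga4 (-9.93), Itgav (-0.875), and Itgb2 (-10.6) between recipient and naive spleen. In the last, thinning to 500 UMIs gave -0.160 for Itgb2 and 0.657 for Itgb7, CD8-UMI cells gave -0.482 for Itgav, and leaving out a library gave -0.871 to 0.127 for Itgb7. Between rejecting and accepted kidneys, leaving out a library gave -2.55 to 0.357 for Itgae and -4.57 to 15.4 for Itgb1. With all libraries the shares of 4 members did not overlap there, beside 69.3% of all genes. Leaving out a library can only keep or raise such a count, so it was not compared. Without thinning, pairing with Itgb1 was 1.00 for Itga1, 1.01 for Itgav, and 1.07 for Itga4. That of Itgav with Itgb7 was then 0.770 and that of Itga1 with Itgae 1.18. Thinning to 500 UMIs gave 0.969 for Itgav with Itgb1 and 1.32 for Itga1 with Itgae.

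Libraries of kidney and spleen share a number in their tags. Deviations of same-numbered libraries correlated over 0.1 in 2 of 3 pairs at 1 week, 4 of 5 at 3 weeks, 2 of 3 at 24 weeks, and 0 of 2 in rejection, and 2 of 3, 3 of 5, 2 of 3, and 0 of 2 kidney libraries correlated best with their own number. In rejection 2 libraries of each tissue give deviations that mirror each other, so its 2 pairs hold a single value (r = -0.0474) and are not counted. The counts at 1, 3, and 24 weeks were short of every pair. The number was therefore not used as a pairing, and whether it marks a shared animal is not settled. With the replicate block on this number 6379, 7743, and 5517 genes passed at 1, 3, and 24 weeks, against 6016, 7391, and 5512, and Itgal at 1 week passed (0.32, adjusted p = 0.0154).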
